A study of Homo sapiens with 35 samples.

Results

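The 41 genes described here encode collagens, laminins and other proteins of the basement membrane and the fibrillar matrix: 8 fibrillar collagen chains, 6 chains of basement membrane collagen IV, 3 of collagen VI, 8 other collagens, 9 laminin chains, 3 genes for nidogens and perlecan, 2 matricellular proteins and 2 crosslinking enzymes. They were listed by symbol, with earlier results of these data known though by no threshold on a value, from the 62696 rows of a gene count table, and 37 of the 41 had enough reads to be tested beside 16879 genes in all. The cells were U-87 MG, a human glioma line. In RNA-seq, groups of 3 libraries were made from control cells without TWEAK, control cells with TWEAK, ETS1 KD cells with TWEAK and NFKB2 KD cells with TWEAK (12 libraries). TWEAK, a cytokine of the TNF family that activates non-canonical NF-κB signalling, was given at 10 ng/ml for 48 h after serum starvation. Each KD was made by lentiviral CRISPR, and the titles of the RNA-seq libraries name no guide. The KD cells kept part of the transcript of the targeted gene, and there was no KD group without TWEAK. ChIP-seq with antibodies to p52 (8 libraries), ETS1 (4 libraries) and RNA Pol II (8 libraries) came as 2 libraries for each group. Control cells with and without TWEAK were used for all 3 antibodies. TWEAK-treated ETS1 KD cells were used for p52 (guides 1 and 2) and RNA Pol II, and TWEAK-treated NFKB2 KD cells for RNA Pol II. The titles of the RNA Pol II libraries name no guide. Input was 1 library each of control, ETS1 KD guide 1 and ETS1 KD guide 2 cells, all labelled as TWEAK-treated.

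Basement membranes are thin sheets in which a network of collagen IV and a network of laminin heterotrimers are joined by nidogens and by perlecan, a heparan sulphate proteoglycan. Fibrillar collagens form the banded fibres of connective tissue and are crosslinked by lysyl oxidases, while collagen VI forms beaded filaments around cells. In the brain, such matrix lies mainly around blood vessels, and glioma cells deposit and remodel it as they invade. p52, the processed product of NFKB2, binds κB sequences, and ETS1 is a transcription factor that recognises a GGAA core.

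Total counts were between 28384201 and 40192606 per library. ETS1 stood at 71.9 to 87.6 CPM (reads of a gene scaled to library size) in TWEAK-treated control cells and at 28.2 to 37.8 in ETS1 KD cells, and NFKB2 at 235 to 346 in TWEAK-treated control cells and at 75.7 to 105 in NFKB2 KD cells, so both targeted genes followed the labels. Of 7 markers of U-87 MG and glial cells (VIM, NES, CD44, S100B, GFAP, SOX2 and OLIG2), 4 had enough reads to be tested. VIM, CD44 and NES were abundant, while GFAP, SOX2 and S100B had at most 13 counts in any library. The 9 markers of blood, endothelial and epithelial cells added up to between 3.46 and 6.81 CPM per library. Of these, 3 had enough reads to be tested, and KRT5 was at 0 in all 12 libraries. In the bulk RNA of a culture, fewer cells that express a gene and less RNA per cell cannot be told apart.

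p52 peaks were placed at the genes. A site was counted where peaks of both replicates overlapped by at least 1 bp, and a gene held it where it lay in the gene or within 10 kb of its ends. After TWEAK, 12 of the 41 members held 13 p52 sites (32.4% of the 37 tested), and without TWEAK no member held any. Over all genes the shares were 13.2% after and 0.0889% before TWEAK. The members span a median of 115 kb, against 25.8 kb over all genes tested, and per Mb of gene and flanks there were 2.34 overlapping pairs of p52 peaks at the members, 14 pairs that make up the 13 sites, and 1.84 at all genes. None of the 13 summits lay within 1 kb of the main start. At annotated promoters, from 1000 bp before to 100 bp after any start, only TNC held a p52 site, at an internal start, against 4.21% of all genes.

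The sequence around the summit is shown for the COL15A1, COL6A3 and COL8A2 sites, as examples with the κB consensus, and for the TNC site, as an example without it. The windows are 81 bases on the plus strand of hg38, read from the reference genome, and capitals mark matches to the κB consensus on either strand.
COL15A1, intron 5, chr9:98993748-98993828: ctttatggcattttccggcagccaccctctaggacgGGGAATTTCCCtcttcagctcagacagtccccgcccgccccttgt
COL6A3, intron 5, chr2:237379814-237379894: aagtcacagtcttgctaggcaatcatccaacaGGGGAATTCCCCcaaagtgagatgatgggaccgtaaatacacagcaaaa
COL8A2, intron 2, chr1:36108530-36108610: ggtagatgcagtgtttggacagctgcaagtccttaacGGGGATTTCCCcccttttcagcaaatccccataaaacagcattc
TNC, intron 12, chr9:115063651-115063731: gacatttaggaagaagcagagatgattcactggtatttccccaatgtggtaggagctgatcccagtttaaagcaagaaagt
The TNC window holds TGANTCA instead, 15 bases from the summit. In the 201 bases around the summit, 9 of the 13 member sites held the κB consensus and 6 held TGANTCA, the AP-1 motif, on either strand. Over all 2942 p52 sites after TWEAK the shares were 71.8% and 24%.

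**Figure D1:**
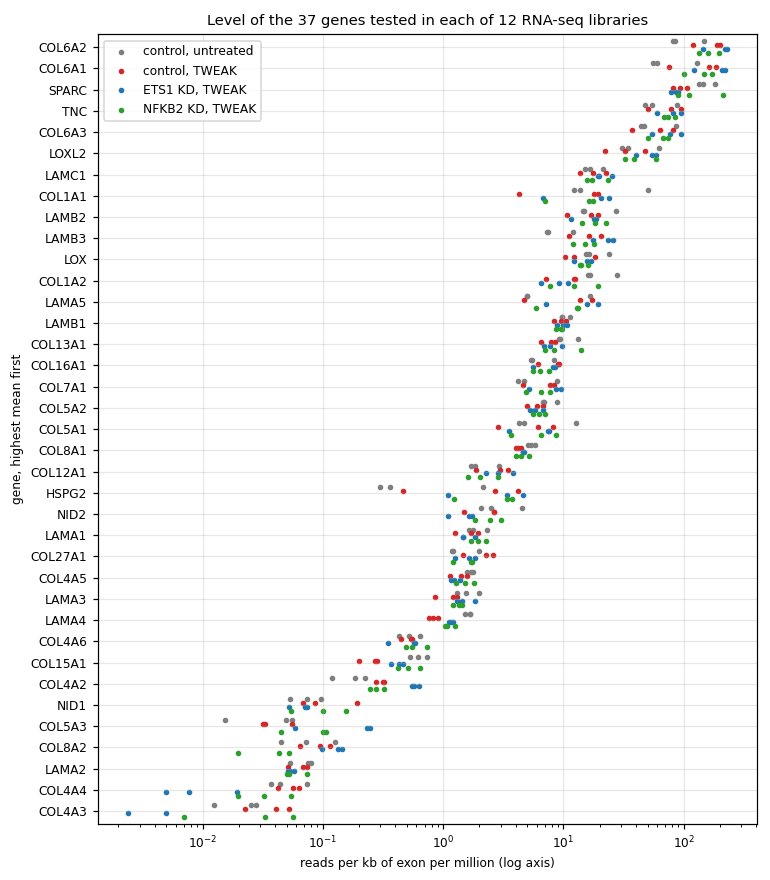
Level of each of the 37 genes tested, in RPKM (CPM per kb of exon, log axis), with 1 point for each of the 12 libraries coloured by group and genes ordered by their mean. COL6A2, COL6A1 and SPARC stood highest, and COL4A3 stood lowest. Libraries of 1 group were often as far apart as the groups.

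A few genes stood far above the rest in level. Averaged over the 12 libraries and scaled to exon length, the highest levels were those of COL6A2 (158.8 RPKM), COL6A1 (136.5 RPKM), SPARC (117.1 RPKM), which encodes a collagen-binding matricellular glycoprotein, TNC (73.0 RPKM), which encodes the adhesion-modulating protein tenascin-C, and COL6A3 (64.7 RPKM). The crosslinking enzyme LOXL2 followed at 42.8 RPKM and the common laminin chain LAMC1 at 19.0 RPKM. Among the laminins, LAMB2 (17.2 RPKM), LAMB3 (15.6 RPKM), LAMA5 (11.4 RPKM) and LAMB1 (9.70 RPKM) had the next highest levels. COL6A2 was at 104.7 ± 37.6 RPKM in untreated control cells, 168.8 ± 43.0 with TWEAK, 198.6 ± 46.1 after ETS1 KD and 163.2 ± 31.1 after NFKB2 KD (SD, n = 3 each).

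The collagen IV genes were low in all groups. COL4A5 had the highest level of them at 1.46 RPKM, COL4A6 stood at 0.533 RPKM and COL4A2 at 0.337 RPKM. COL4A1, which encodes the usual partner chain of COL4A2 and lies head to head with it with 127 bp between the main start sites, had 4 counts in all 12 libraries together, with 1 in an untreated, 1 in a TWEAK control and 2 in an ETS1 KD library. It was at 0 in all 3 NFKB2 KD libraries, and a count of 0 allows up to 3 counts in a library. COL18A1, another basement membrane collagen, had at most 2 counts in a library, COL11A1 at most 4 and the fibrillar COL3A1 at most 11, and these 4 genes did not pass the filter on low counts. NID1, which encodes the nidogen that joins laminin and collagen IV, was also low at 0.0897 RPKM, beside NID2 at 2.30 RPKM and the perlecan gene HSPG2 at 2.30 RPKM.

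Levels of several members moved more between libraries of 1 group than between groups. HSPG2 was at 6.60, 5.38 and 39.1 CPM in untreated control cells, 8.47, 48.5 and 76.4 CPM with TWEAK, 62.0, 19.9 and 83.5 CPM in ETS1 KD cells and 22.2, 61.2 and 67.4 CPM in NFKB2 KD cells. All 4 groups overlapped, and the same libraries were low for COL1A1, COL6A1 and LAMA5: untreated control replicates 1 and 2, TWEAK control replicate 1, NFKB2 KD replicate 1 and ETS1 KD replicate 2. Over genes that are not members, those 5 libraries had a trend of level against GC content between -0.15 and -0.0951 log2 units per 10 points of GC, whereas the trends of the other 7 lay between -0.0158 and 0.26. Of the members with a mean of at least 10 CPM, 10 had a GC content of at least 60%, and in them the highest library of a group exceeded the lowest by up to 9.02 times (median of the largest ratio 2.31). In 12 members with under 50% GC that ratio reached 2.49 (median 1.55). Each comparison was fitted again after a correction of every library for GC content and transcript length, and the calls of members that it changed are given with each comparison.

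**Figure D2:**
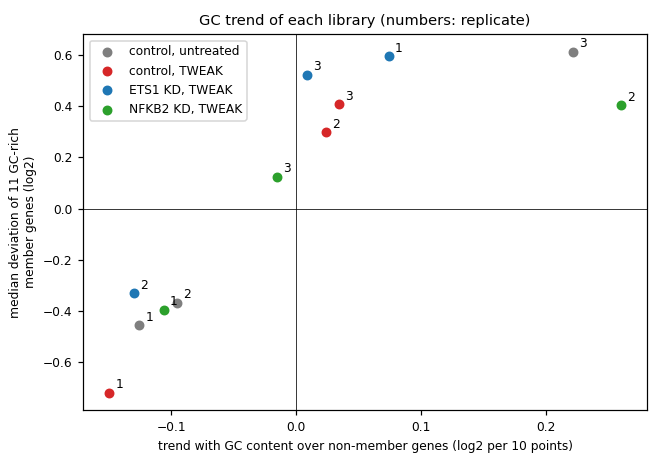
Each point is an RNA-seq library. The horizontal axis gives the slope of log2 CPM deviation against GC content over genes that are not members (log2 per 10 points of GC), and the vertical axis the median log2 deviation of the 11 members with at least 60% GC from their mean over libraries. The 5 libraries at the lower left, which belong to all 4 groups, lie between -0.72 and -0.33, and the other 7 lie above 0.

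The most abundant members are given next. COL6A1 was at 308, 330.2 and 719 CPM in untreated control cells, 419, 899.5 and 1032 CPM with TWEAK, 1149, 670.3 and 1218 CPM with ETS1 KD and 559, 958 and 809.8 CPM with NFKB2 KD. COL6A2 was at 435, 451 and 789.8 CPM in untreated control cells, 638, 1001 and 1061 CPM with TWEAK, 1217, 777 and 1185 CPM with ETS1 KD and 713, 1043 and 856 CPM with NFKB2 KD. For both collagen VI genes the 5 libraries named above were the lowest of their groups. TNC was at 459.6, 523 and 835 CPM in untreated control cells, 486, 749 and 902 CPM with TWEAK, 783, 572 and 908 CPM with ETS1 KD and 659.7, 706 and 813 CPM with NFKB2 KD. SPARC was at 619, 672 and 838 CPM in untreated control cells, 374, 435 and 493 CPM with TWEAK, 414, 364 and 402 CPM with ETS1 KD and 418, 976 and 510.1 CPM with NFKB2 KD. All groups overlapped in TNC, while SPARC was lower in every TWEAK-treated control library than in every untreated one.

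The first comparison asked how TWEAK changed these genes in control cells. COL15A1 and LAMA4 fell. They encode the basement membrane zone collagen XV chain and the laminin α4 chain of vessel and mesenchymal basement membranes. None of the 37 passed the test in the other direction. COL15A1 (hg38 chromosome 9, 98943179 to 99070792) was at 3.54, 4.09 and 4.88 CPM in untreated cells and at 1.79, 1.89 and 1.33 CPM with TWEAK. The groups did not overlap, and the log2 fold change was -1.32 ± 0.21 (SE), with an adjusted p of 0.00514 by edgeR's quasi-likelihood test. LAMA4 (chromosome 6, 112107931 to 112254939) was at 19.9, 18.4 and 19.9 CPM in untreated cells and at 9.15, 10.8 and 9.80 CPM with TWEAK. Its groups did not overlap either, and the log2 fold change was -0.97 ± 0.12 (adjusted p = 0.000733 by edgeR). These 2 of 37 compare with 3.08% of all genes tested, of which 261 rose and 259 fell, and 10 members had an unadjusted p under 0.05, against 14.7% of all genes. The median log2 fold change of the members was -0.05 and that of all genes tested 0.02.

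**Figure D3:**
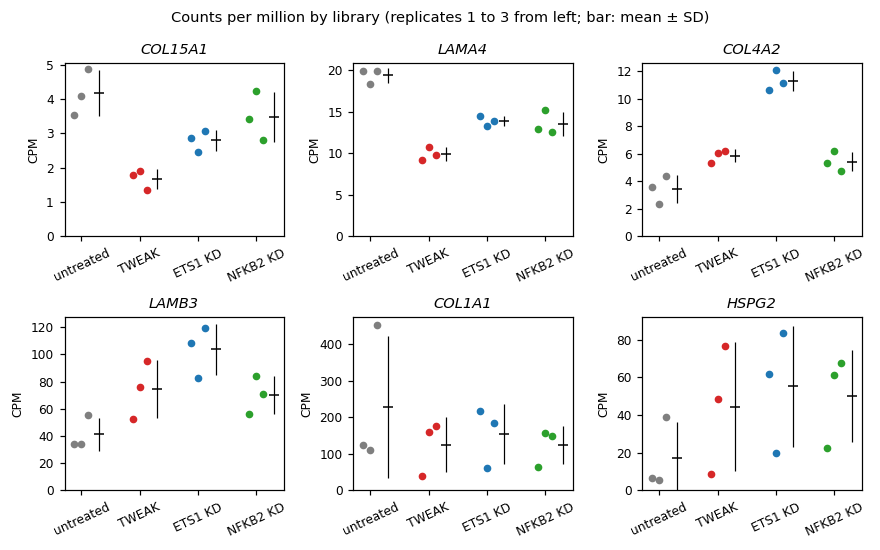
CPM of 6 members in each library, with replicates 1 to 3 from left to right in each group and the mean ± SD beside them (n = 3). COL15A1 and LAMA4 were lower in all 3 TWEAK control libraries than in the 3 untreated ones, COL4A2 was highest in the 3 ETS1 KD libraries, and in COL1A1 and HSPG2 the libraries of a group were far apart.

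The share of members whose groups did not overlap was near that of all genes. In 8 of the 37 the 3 untreated and the 3 treated libraries did not overlap, against 22.5% of all genes tested. Of these 8, 7 lay lower with TWEAK: beside COL15A1 and LAMA4 they were COL1A2, COL5A2, COL8A1, COL13A1 and SPARC, which did not pass the test. Of all genes tested, 1942 lay lower and 1849 higher without overlap. SPARC was at 619, 672 and 838 CPM without and at 374, 435 and 493 CPM with TWEAK (log2 fold change -0.71 ± 0.25, adjusted p = 0.178 by edgeR). COL1A2, a chain of collagen I, was at 173, 180 and 303 CPM without and 77.4, 133 and 134 CPM with TWEAK (-0.93 ± 0.33, adjusted p = 0.184 by edgeR).

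COL4A2 alone lay higher with TWEAK without overlap, at 3.58, 2.31 and 4.34 against 5.31, 6.05 and 6.19 CPM (log2 fold change 0.78 ± 0.20, adjusted p = 0.0597 by edgeR). LAMB3, which encodes the laminin β3 chain of epithelial laminin-332, was at 34.3, 34.1 and 55.4 CPM without and at 52.2, 76.0 and 95.2 CPM with TWEAK. Those groups overlapped in 1 library each, and its log2 fold change was 0.85 ± 0.25 (adjusted p = 0.0972 by edgeR). After the correction for GC content and length, LAMB3, COL4A2, COL27A1 and COL6A2 rose as well, and COL15A1 and LAMA4 still fell. LAMB3 then changed by 0.89 ± 0.11, COL4A2 by 0.82 ± 0.17, COL27A1, a fibrillar collagen gene, by 0.58 ± 0.15 and COL6A2 by 0.74 ± 0.17 log2 units (adjusted p = 0.000375, 0.0138, 0.0406 and 0.0192 by edgeR). These 6 members compare with 5.96% of all genes in that fit, and COL15A1 and LAMA4 had log2 fold changes of -1.30 and -0.95 (adjusted p = 0.00117 and 0.000357 by edgeR).

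**Figure D4:**
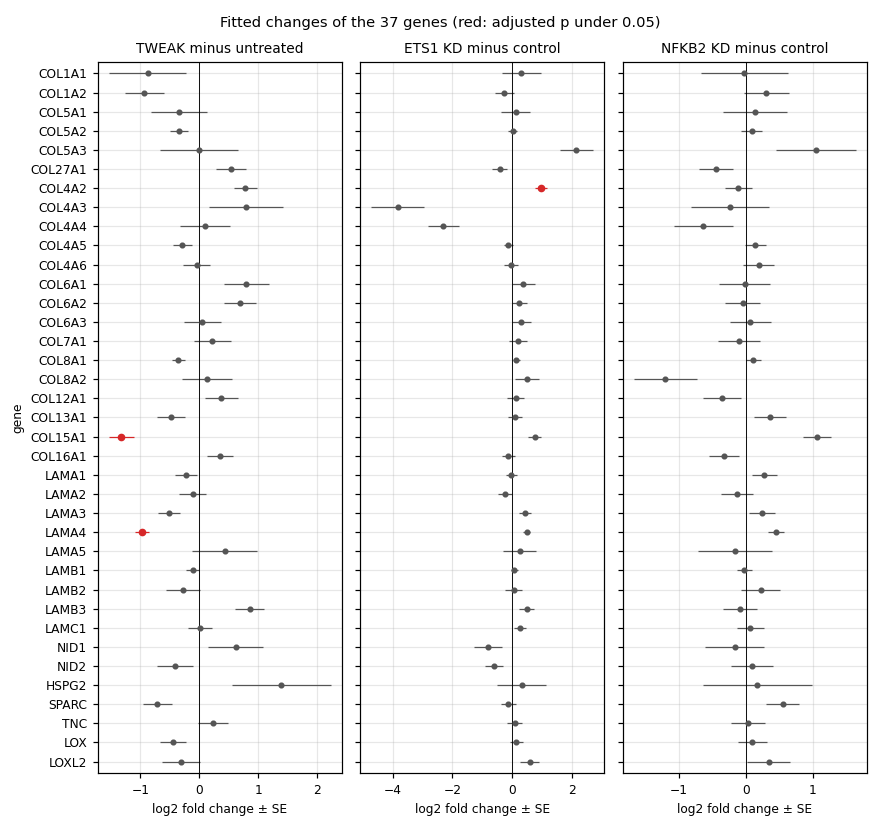
Fitted log2 fold change ± SE of each of the 37 genes (n = 3 libraries a group) in 3 comparisons: TWEAK minus untreated in control cells, and ETS1 KD or NFKB2 KD minus control, all with TWEAK. Red points passed an adjusted p of 0.05: COL15A1 and LAMA4 below 0 on the left, COL4A2 above 0 in the middle and none on the right.

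The second comparison asked how ETS1 KD changed these genes in TWEAK-treated cells. COL4A2, which encodes the α2 chain of collagen IV, rose and was the single member to pass the test. The gene lies on chromosome 13 from 110305812 to 110513209, and its annotated 5′ end overlaps that of COL4A1 on the other strand, where reads of the pair cannot be told apart without the strand setting. COL4A2 was at 5.31, 6.05 and 6.19 CPM in control and at 10.7, 12.1 and 11.1 CPM in ETS1 KD cells. The groups did not overlap and the ETS1 KD mean of 11.3 ± 0.73 CPM stood beside 5.85 ± 0.47 (SD, n = 3), a log2 fold change of 0.95 ± 0.19 with an adjusted p of 0.0301 by edgeR. The call was lost without any 1 of the 3 ETS1 KD or the 3 TWEAK control libraries or without untreated control replicate 1 (adjusted p 0.0564 to 0.132). After the GC and length correction the change was 0.93 ± 0.16 (adjusted p = 0.00767 by edgeR). This 1 of 37 compares with 1.39% of all genes tested, of which 43 rose and 191 fell, and 7 members had an unadjusted p under 0.05, against 12% of all genes. In 7 of the 37 the groups did not overlap, a share near the 20.3% of all genes. COL4A2, COL5A3, COL8A1, COL15A1 and LAMA4 were higher in ETS1 KD cells, and COL4A3 and COL4A4 lower. Of all genes tested, 1615 lay higher and 1815 lower without overlap.

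COL4A3 and COL4A4, the collagen IV genes of kidney and lung basement membranes, share a start region with 419 bp between their main starts. COL4A3 had 18, 20 and 10 counts in TWEAK control libraries and 1, 2 and 0 in ETS1 KD libraries. The summed counts, 48 against 3, gave a ratio of 0.064 (95% exact binomial interval 0.0127 to 0.198, counting error only), and the adjusted p was 0.0566 by edgeR. COL4A4 had 14, 30 and 24 counts against 2, 3 and 8 (log2 fold change -2.30 ± 0.52, adjusted p = 0.0505 by edgeR). COL5A3, a minor fibrillar collagen gene, went the other way with 6, 15 and 8 against 54, 13 and 59 counts (2.14 ± 0.56, adjusted p = 0.0983 by edgeR). All 3 passed after the GC and length correction (adjusted p = 0.0386, 0.0327 and 0.0462 by edgeR), as did LAMB3 (0.48 ± 0.11, adjusted p = 0.0327) and LAMA4 (0.49 ± 0.11, adjusted p = 0.0397), both higher in ETS1 KD cells. With COL4A2 these were 6 members, against 2.93% of all genes in that fit.

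The third comparison asked the same of KD of NFKB2, the gene that encodes p52. No member passed edgeR's test, against 0.0296% of all genes tested, which is 5 genes. By an unadjusted p under 0.05 there were 4 members, against 3.91% of all genes, and DESeq2 called 1, COL15A1 (adjusted p = 0.00614), against 0.213% of all genes. After the GC and length correction 0 members were called, against 0.0415% of all genes. COL15A1 was at 1.79, 1.89 and 1.33 CPM in TWEAK control and at 3.42, 4.24 and 2.80 CPM in NFKB2 KD cells (log2 fold change 1.06 ± 0.21, adjusted p = 0.296 by edgeR, and 1.00 with an adjusted p of 0.133 after the correction). LAMA4 was at 12.9, 15.2 and 12.5 CPM in NFKB2 KD cells, above all 3 control libraries (0.45 ± 0.12, adjusted p = 0.684 by edgeR). COL8A2, a short-chain collagen gene, was lower without overlap, with 7, 9 and 3 counts against 15, 12 and 16. These 3 of 37 compare with 6.87% of all genes whose groups did not overlap. The TWEAK control libraries enter all 3 comparisons above: COL15A1 was at 2.87, 2.45 and 3.06 CPM and LAMA4 at 14.5, 13.3 and 13.9 CPM in ETS1 KD cells, values between those of the untreated and the TWEAK-treated control cells for both genes.

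Set directly against each other, ETS1 KD and NFKB2 KD cells differed in COL4A2, which was at 5.30, 6.20 and 4.77 CPM in NFKB2 KD cells and about 2.08 times as high in ETS1 KD cells (log2 difference 1.06 ± 0.19, adjusted p = 0.0152 by edgeR). The call was lost without any 1 ETS1 KD library or NFKB2 KD replicate 3 (adjusted p 0.056 to 0.0911). Of all genes tested 1.94% differed, 7 members had an unadjusted p under 0.05 against 15.5% of all genes, and 19% did not overlap between these groups. Among the members that was so for 6 of 37: COL4A2 and COL8A2 were higher in ETS1 KD cells, and COL4A3, COL4A4, NID2 and SPARC lower. COL8A2 and COL4A3 passed after the GC and length correction, as did LAMB3 (0.65 ± 0.11, adjusted p = 0.00574 by edgeR), which with COL4A2 made 4 members against 4.5% of all genes in that fit.

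By role, the 3 collagen VI genes had a median log2 fold change of 0.69 with TWEAK, of which COL6A1 had 0.79 ± 0.38 (adjusted p = 0.367) and COL6A3 0.05 ± 0.31 (adjusted p = 0.971 by edgeR). None of them passed. The 6 fibrillar collagen genes tested had a median of -0.34 with TWEAK, and COL1A1 was at 123, 109 and 454 CPM without and 38.7, 160 and 176 CPM with it, so that its groups overlapped. The 9 laminin genes had medians of -0.11 with TWEAK and 0.24 in ETS1 KD. LAMB1 and LAMC1, the chains shared by many laminin trimers, did not pass the test, with log2 fold changes between -0.11 and 0.27 in the 3 comparisons. LOX and LOXL2, the lysyl oxidases of the set, had -0.44 ± 0.22 and -0.31 ± 0.32 with TWEAK (adjusted p = 0.393 and 0.754 by edgeR).

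LAMB1 and LAMC1, with NID1, belong to the core of a basement membrane. LAMB1 was at 179.5, 181 and 209.5 CPM in untreated control cells, 156, 176 and 194 CPM with TWEAK, 185, 164 and 199.8 CPM with ETS1 KD and 160.5, 180.2 and 178 CPM with NFKB2 KD. LAMC1 was at 128, 142 and 179 CPM in untreated control cells, 116, 148 and 190.4 CPM with TWEAK, 164, 168 and 215 CPM with ETS1 KD and 132, 197 and 147 CPM with NFKB2 KD. Neither separated the groups in any comparison. NID1 had 9, 14 and 18 counts untreated, 14, 16 and 40 with TWEAK, 14, 10 and 15 with ETS1 KD and 11, 33 and 19 with NFKB2 KD. Its log2 fold changes were 0.62 ± 0.46 with TWEAK and -0.81 ± 0.46 in ETS1 KD cells, neither past the test (adjusted p = 0.634 and 0.569 by edgeR).

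Other genes of the pathway were grouped in 4 lists. With TWEAK, the calls were 0 of 7 other collagens and laminins, 1 of 26 genes of collagen processing, 3 of 24 other matrix genes and 1 of 12 matrix receptors, against the 3.08% of all genes. In ETS1 KD cells there was 1 call in each list, against 1.39%. Of 22 other collagen and laminin genes, 7 were tested. COL21A1, a fibril-associated collagen gene, fell in ETS1 KD cells (log2 fold change -2.89 ± 0.51, adjusted p = 0.012 by edgeR), from 0.395, 0.448 and 0.750 CPM to 0.0880, 0.0920 and 0.0286 CPM. Of 26 tested genes of collagen processing, PLOD2, a lysyl hydroxylase, rose in ETS1 KD cells from 231, 236 and 304 to 404, 426 and 455 CPM (0.74 ± 0.13, adjusted p = 0.0138 by edgeR). ADAMTS14, a procollagen N-propeptidase, fell with TWEAK from 5.98, 7.35 and 13.7 to 1.76, 2.44 and 2.89 CPM (-1.92 ± 0.46, adjusted p = 0.0439 by edgeR).

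Of 24 other matrix genes tested, CCN1, a matricellular protein gene, rose with TWEAK, from 7.61, 6.85 and 6.78 to 14.6, 18.3 and 16.1 CPM (1.21 ± 0.17, adjusted p = 0.00174 by edgeR). The proteoglycan gene LUM fell with TWEAK from 8.97, 8.91 and 5.78 to 4.27, 4.48 and 2.75 CPM (-1.04 ± 0.24, adjusted p = 0.0351 by edgeR). EFEMP1, a fibulin gene, was at 5.39, 5.84 and 5.72 CPM untreated, 1.54, 1.79 and 2.11 with TWEAK and 0.675, 0.399 and 0.601 in ETS1 KD cells. It fell with TWEAK (-1.63 ± 0.32, adjusted p = 0.0157) and was lower again in ETS1 KD cells (-1.70 ± 0.37, adjusted p = 0.0435 by edgeR). Of 12 matrix receptor genes other than integrins, the syndecan gene SDC2 fell with TWEAK from 90.6, 87.6 and 94.0 to 53.4, 53.4 and 53.1 CPM (-0.77 ± 0.18, adjusted p = 0.0377 by edgeR). SDC3, another syndecan gene, fell in ETS1 KD cells from 1.83, 2.09 and 2.67 to 0.381, 0.153 and 0.343 CPM (-2.89 ± 0.46, adjusted p = 0.00607 by edgeR). NFKB2 KD gave 0 calls in the 69 genes of these lists by edgeR and 0 by DESeq2, and 6 had an unadjusted p under 0.05.

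Of the p52 sites whose sequences are shown above, that of COL15A1 had the highest fold enrichment in both TWEAK control libraries. Its fold enrichment over input was 22.7 and 59.7 in the TWEAK control libraries, with no peak in either untreated library, and its −log10 q ranked 207th of 3579 and 109th of 11761 peaks. In ETS1 KD cells it was 32.0 and 59.1 with guide 1 and 53.9 and 54.3 with guide 2, a range that overlaps that of control cells. The summit lay 49.9 kb downstream of the main start. The COL6A3 site, 34.3 kb downstream, had 21.1 and 45.6 in control, 14.9 and 32.7 with guide 1 and 54.2 and 51.9 with guide 2. By −log10 q it ranked 161st and 119th in the TWEAK control libraries, above the COL15A1 site in replicate 1 and below it in replicate 2. Replicate 2 of the p52 TWEAK control had 11761 peaks against 3579 in replicate 1, and 12 of the 13 sites were higher in it.

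**Figure D5:**
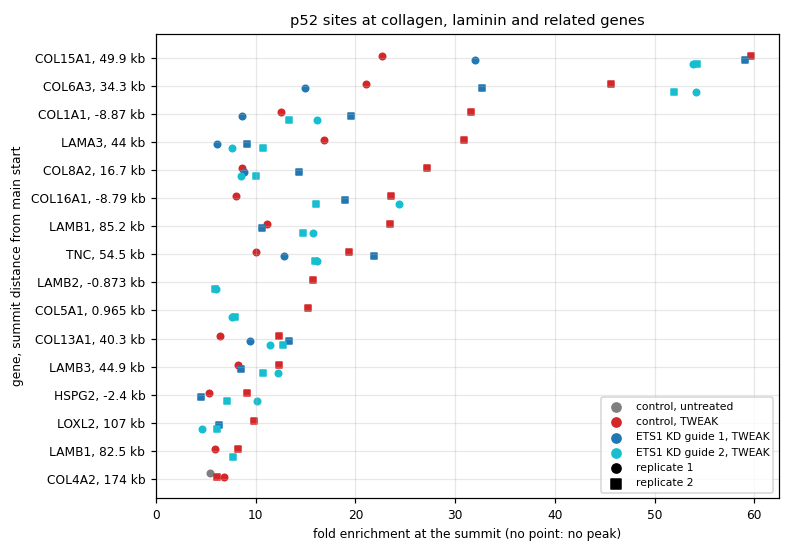
Fold enrichment over input of every p52 site found in both replicates of at least 1 group at the members, with the distance of the summit from the main start. Circles are replicate 1 and squares replicate 2, and a missing point means that no peak was called. Apart from COL4A2, no site has a point for untreated cells, and COL15A1 and COL6A3 reach furthest to the right.

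COL1A1 held a site at -8.87 kb from its start (12.5 and 31.6), LAMA3, which encodes the laminin α3 chain, one in intron 2 (16.9 and 30.9), and COL13A1, a transmembrane collagen gene, one in intron 2 (6.42 and 12.3). The sites of COL16A1 (8.04 and 23.6) and HSPG2 (5.32 and 9.08) lay at -8.79 and -2.4 kb, outside the genes. The 2 sites counted for LAMB1 lay beyond its 3′ end in DLD, and that of LAMB3 in CAMK1G, so that these summits lie in neighbouring genes. The COL1A1 summit lay in another annotated gene, ENSG00000249406, and the TNC summit lay in DELEC1 as well as in TNC. With ETS1 KD, 7 members held a p52 site with guide 1 and 14 with guide 2, against 6.03% and 13.4% of all genes. Guide 1 replicate 1 had 1387 peaks, the fewest of the 6 TWEAK libraries. With guide 2, sites at COL5A1, LAMB2 and LOXL2 were added that in TWEAK control cells had a peak in replicate 2 only.

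The transcripts of the genes with a p52 site are given next. COL6A3 was at 949, 1007 and 1838 CPM in untreated control cells, 802, 1368 and 1760 CPM with TWEAK, 1642, 1181 and 2031 CPM with ETS1 KD and 1076, 1604 and 1446 CPM with NFKB2 KD. LAMA3 was at 19.0, 22.4 and 28.5 CPM in untreated control cells, 12.4, 17.6 and 19.0 CPM with TWEAK, 20.7, 18.8 and 26.5 CPM with ETS1 KD and 17.4, 19.7 and 20.9 CPM with NFKB2 KD. In neither did the TWEAK groups separate, and the log2 fold changes were 0.05 ± 0.31 and -0.51 ± 0.19 (adjusted p = 0.971 and 0.215 by edgeR). COL13A1 was at 106, 108 and 153 CPM in untreated control cells, 75.4, 91.5 and 97.0 CPM with TWEAK, 112, 79.0 and 88.6 CPM with ETS1 KD and 81.3, 160.4 and 96.6 CPM with NFKB2 KD. It was lower in all TWEAK-treated control libraries than in all untreated ones (-0.48 ± 0.24, adjusted p = 0.395 by edgeR). COL16A1 was at 50.6, 49.9 and 76.7 CPM in untreated control cells, 57.0, 83.3 and 85.5 CPM with TWEAK, 79.4, 51.2 and 75.4 CPM with ETS1 KD and 51.9, 58.8 and 69.6 CPM with NFKB2 KD. LAMB2 was at 101, 100.3 and 189 CPM in untreated control cells, 74.0, 116 and 132 CPM with TWEAK, 128, 79.7 and 124 CPM with ETS1 KD and 97.0, 154 and 125 CPM with NFKB2 KD. COL5A1 was at 47.9, 52.3 and 142 CPM in untreated control cells, 31.9, 68.1 and 90.9 CPM with TWEAK, 84.1, 39.3 and 82.6 CPM with ETS1 KD and 40.9, 97.5 and 72.4 CPM with NFKB2 KD. The TWEAK and untreated groups overlapped in these 3 genes. Of the 12 members with a p52 site in TWEAK control cells, COL15A1 passed the uncorrected test for TWEAK, and COL15A1, COL4A2 and LAMB3 passed it after the GC and length correction. Of the members without one, LAMA4 passed the first test, and LAMA4, COL27A1 and COL6A2 the second. Over all genes the shares were 3.08% and 5.96%, and a link between sites and calls was not tested.

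The COL4A2 site differed from the others. It lay in intron 31 at 174 kb from the start, with fold enrichments of 6.83 and 6.13 in the TWEAK control libraries, and untreated replicate 1 also had a peak there (5.43). No ETS1 KD library had one, but control, guide 1 and guide 2 cells each had a separate input library. A difference between inputs cannot be told apart here from a difference in p52. The ETS1 antibody gave peaks at the same place in both conditions (6.12 and 4.19 untreated, 5.71 and 4.56 with TWEAK). No κB consensus lay within the 201 bases, and the 895 bases of the p52 site (chromosome 13, 110480969 to 110481863) repeat the 14 letters TGCTGGAGACACAC 29 times. The part of this repeat in the peaks was not tested.
COL4A2, intron 31, chr13:110481170-110481250: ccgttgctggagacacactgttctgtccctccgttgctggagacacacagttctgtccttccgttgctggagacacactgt

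ETS1 sites were fewer. After TWEAK, 3 of the 41 members held one, LAMB1, LOX and COL4A2, and 2 of them at the promoter, against 11.5% and 7.48% of all genes. Without TWEAK there were 4, LAMB1, LOX, LOXL2 and COL4A2, 3 of them at the promoter, against 8.34% and 5.37%. The LAMB1 site, 0.629 kb into the gene, had fold enrichments of 6.15 and 6.48 untreated and 9.85 and 8.28 with TWEAK, without overlap between the pairs. With 2 against 2 libraries an exact permutation test cannot reach 0.05, and none was run. LOX had 5.02 and 5.37 untreated and 4.66 and 7.16 with TWEAK, in its coding exon 0.365 kb from the start. The shared start of COL4A3 and COL4A4 had an ETS1 peak in each TWEAK library (4.31 and 4.87), but the peaks did not overlap, and it had one in untreated replicate 1 (5.12) and none in replicate 2. At the shared start of COL4A1 and COL4A2 only replicate 1 had peaks, in both conditions. AGGAAG, 1 of the sequences with a GGAA core, was searched within the 201 bases on either strand. None of the 3 sites after TWEAK held it, against 17.2% of all 2013 ETS1 sites after TWEAK. The 3 sites are too few to set against that share, and the GGAA core alone was not counted.

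Of the members with an ETS1 site at the promoter, LAMB1 was given above. LOX was at 85.6, 90.7 and 133 CPM in untreated control cells, 57.4, 68.6 and 102 CPM with TWEAK, 87.7, 67.9 and 95.3 CPM with ETS1 KD and 77.6, 77.4 and 89.4 CPM with NFKB2 KD. LOXL2 was at 184, 204 and 374 CPM in untreated control cells, 133, 194 and 286 CPM with TWEAK, 329, 241 and 351 CPM with ETS1 KD and 196, 354 and 229 CPM with NFKB2 KD. Groups overlapped for both genes in each comparison, and neither passed the test in ETS1 KD cells (log2 fold changes 0.14 ± 0.22 and 0.59 ± 0.32, adjusted p = 0.921 and 0.534 by edgeR).

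RNA Pol II peaks were looked for at the same promoters. In both TWEAK control replicates 16 of the 41 members had one, against 57.4% of all genes tested, and 16, 15 and 13 in untreated control, ETS1 KD and NFKB2 KD cells, against 45.7%, 49.1% and 43.1%. The libraries differed in their number of peaks. NFKB2 KD replicate 2 had 11175 against 30310 in replicate 1, and TWEAK control replicate 1 had 44672 against 27056 in replicate 2. The part of this in the counts and enrichments was not tested. The 11 members with a peak in all 8 libraries were COL1A1, COL6A1, COL6A2, COL6A3, COL8A1, LAMA2, LAMA5, LAMC1, SPARC, TNC and LOXL2. Enrichment was highest at TNC (38.8 and 49.1 untreated, 81.7 and 46.9 with TWEAK), LOXL2 (25.4 and 28.7, then 78.1 and 31.4) and SPARC (37.5 and 37.2, then 51.5 and 29.6). In TNC and LOXL2 TWEAK replicate 1 was higher than both untreated libraries and replicate 2 was near them or below. For LAMA2 and LAMA5 the peak lay at an annotated start 608 kb and 58.2 kb downstream of the main one. COL15A1, LAMA4 and COL4A2, the members called by the uncorrected edgeR test, were among the 14 without a promoter peak in any library. Their levels were low, at 0.456, 1.18 and 0.337 RPKM, but LAMB2, at 17.2 RPKM and not called, was also among the 14. The share of all genes with a peak in all 8 libraries or in none was not counted, and a link between change and missing peaks was not tested.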

How the data were processed

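RNA-seq and ChIP-seq libraries of U-87 MG cells were grouped by their labels. For RNA-seq the authors used Trimmomatic, STAR on hg38 and featureCounts, and deposited whole-number counts per gene; versions, annotation release and strand setting are not given in the sources used here. For ChIP-seq the authors mapped reads with Bowtie2 and called peaks per library with MACS2 against input; the deposited lists give fold enrichment (a ratio) and −log10 q-values. No molecular identifiers are mentioned in those sources, and the depth of the ChIP-seq libraries is unknown. The 41 members and the further gene lists were chosen with earlier results of these data known. Of 62649 gene IDs, 62625 matched GENCODE release 44, which gave positions, GC content and exon length.

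Counts were tested with edgeR 4.0.16 in R 4.3.3 (filterByExpr, TMM, quasi-likelihood test over 12 libraries in 1 model, Benjamini-Hochberg adjustment over 16879 genes, calls at 0.05). RPKM is TMM-scaled CPM per kb of exon. A loess correction (span 0.3) for GC content and transcript length, a replicate block, DESeq2 1.42.0 and left-out libraries were alternatives. The scripts were tested on simulated data. The biological replicates of a group differed by more than sampling noise. ChIP-seq replicates were compared by overlap only. Named were members called with a fold of at least 1.5, the 4 of highest level, and COL4A1, COL4A2, LAMB1, LAMC1, NID1 and HSPG2. Also named were members with a p52 or ETS1 peak in both replicates and called genes of each list. Their values are given in the libraries of all groups or only of the groups compared. COL1A1, LAMB3, COL8A2 and several list genes are among the latter. For COL22A1 only the fitted difference and the summed ETS1 KD counts are given. Other members were named after their values were seen. Intervals cover counting error only.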

Additional observations from a re-analysis of the deposited data

Results flagged for a closer look

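Of the 37 members and the 69 list genes tested, 7 differed between ETS1 KD and NFKB2 KD cells in a direct test by edgeR, all with TWEAK. Of all genes tested, 1.94% differed. Only 1 of the 7, COL4A2, was a member, and the lists were chosen with earlier results of these data known. COL4A2 was 1.06 ± 0.19 log2 units higher in ETS1 KD cells (adjusted p = 0.0152), with 0.95 in ETS1 KD and -0.11 in NFKB2 KD against control. PLOD2 was 0.80 ± 0.13 higher (adjusted p = 0.00954) and CCN1 0.71 ± 0.16 higher (adjusted p = 0.0452). SDC3 had a difference of -2.99 ± 0.45 (adjusted p = 0.00546), EFEMP1 of -2.12 ± 0.37 (adjusted p = 0.0112) and COL21A1 of -2.43 ± 0.53 (adjusted p = 0.0384), all lower in ETS1 KD cells. COL22A1 had a fitted difference of -4.28 ± 0.75 (adjusted p = 0.012), on 3 counts in the ETS1 KD libraries together.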

How the results depend on the processing

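The calls of members depended on how low counts, GC content and single libraries were treated. For TWEAK, edgeR called 2 members. Without a filter on low counts it called 11, with the GC content and length correction 6, and DESeq2 called 5. An unadjusted p of at most 0.05 with a 1.5-fold change gave 7. For ETS1 KD the count of 1 became 5, 6, 5 and 5 in the same order, and 2 with DESeq2 size factors in edgeR. For NFKB2 KD the count of 0 became 2 without the filter, 1 with DESeq2 and 2 by the unadjusted rule. Between the KDs the count of 1 became 7, 4, 3 and 6. Of all genes, DESeq2 called 940, 534, 36 and 817 in these 4 comparisons, the unfiltered fit 859, 469, 87 and 781, the corrected fit 1005, 495, 7 and 760, and the unadjusted rule 1197, 957, 379 and 1244. The calls of COL15A1 and LAMA4 for TWEAK held under every setting run except the one that left out 5 libraries, below, where the direction was the same. The causes of the other differences were not tested.

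Leaving out each library in turn gave 2 to 5 members for TWEAK (4 without untreated control replicate 3, 5 without NFKB2 KD replicate 2), 0 to 3 for ETS1 KD, 0 for NFKB2 KD and 0 to 3 between the KDs. The counts over all genes ranged from 171 to 972, 102 to 391, 2 to 4 and 76 to 561. For ETS1 KD it was 0 without untreated control replicate 1, any TWEAK control library or ETS1 KD replicate 1 or 3, 2 without untreated control replicate 3 or NFKB2 KD replicate 2, and 3 without NFKB2 KD replicate 1 or 3. Between the KDs it was 0 without NFKB2 KD replicate 3 or any ETS1 KD library, and 3 without NFKB2 KD replicate 1. Without the 5 libraries of lowest GC trend, chosen after seeing the data, the untreated group was 1 library, assumed to vary like the other groups, so that neither a call nor a lost call for TWEAK bears on stability. Then 1 member was called for TWEAK (COL1A1), 0 for ETS1 KD and 0 between the KDs, with 10, 49 and 73 of all genes; COL15A1 and LAMA4 then had log2 fold changes of -1.59 and -0.95 (adjusted p = 0.153 each by edgeR).

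Whether replicate numbers pair the samples was not settled. Same-numbered libraries of different groups had correlations of their deviations between -0.304 and 0.492, a range that cannot decide it. With a replicate block the members called were 3 for TWEAK, 0 for ETS1 KD (COL4A2 at an adjusted p of 0.0511 by edgeR), 0 for NFKB2 KD and 1 between the KDs, with 657, 252, 4 and 361 of all genes. With the block and the GC correction they were 10, 6, 0 and 4, with 1412, 693, 14 and 1262 of all genes.

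For the 4 lists, the counts are of genes called in at least 1 of the 4 comparisons. No such pooled count over all genes stands beside them, and the calls of all genes by comparison are given above. For the other collagens and laminins, 2 genes became 4 with DESeq2, 5 by the unadjusted rule and 0 to 3 when single libraries were left out. For collagen processing, 2 became 6 without the filter, 4 with the correction, 5 with block and correction, 6 by the unadjusted rule, 1 without the 5 libraries and 0 to 3 with single libraries left out. For other matrix proteins, 3 became 7 with block and correction, 9 by the unadjusted rule and 2 to 4 with single libraries left out. For matrix receptors, 2 became 4 without the filter, with block and correction, with DESeq2 and by the unadjusted rule, 1 without the 5 libraries and 1 to 3 with single libraries left out.

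Members with p52 sites after TWEAK went from 12 to 28 with a peak in either replicate and to 1 at promoters only, and each replicate alone gave 12 to 28, the higher count from replicate 2. Members with ETS1 sites went from 3 to 11 with either replicate, 1 at a −log10 q of at least 5 and 5 within 50 kb, and each replicate alone gave 7 to 9. RNA Pol II went from 16 to 18 to 21 with 1 replicate. Over 19 called genes and 379 alternative values, 277 kept the call, 102 lost it and 0 reversed. Genes with few counts, such as COL4A3, are limited by depth.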
